A study of Mus musculus with 2 samples.

Results

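The receptors for IL-6, IL-10, IL-12, IL-23, IL-27 and IFN-γ are built from chains encoded by 10 genes: Il6ra, Il6st, Il10ra, Il10rb, Il12rb1, Il12rb2, Il23r, Il27ra, Ifngr1 and Ifngr2. Il6st serves both IL-6 and IL-27, and Il12rb1 both IL-12 and IL-23. All 10 were found by symbol among the 24346 genes listed for each library, and all 10 reached 1 FPKM in at least 1 library. The genes were taken by name, as members of these receptor families, and no threshold on a measured value was used. Regulatory T cells (Tregs) were sorted as GFP+CD4+ cells from spleen and from lung of Foxp3-DTR-GFP (FDG) mice on day 15 after intratracheal bleomycin (BLM), which injures the lung and leads to fibrosis. Mice of 10 to 16 weeks received 50 μg, and each tissue gave 1 library, made from pooled cells of 3 mice. Spleen and lung libraries thus share the reporter allele, in which the Foxp3 locus drives GFP and the diphtheria toxin receptor (DTR), and the exposure to BLM. No untreated mice enter the comparison. It asks how Tregs of the injured lung differ from splenic Tregs. Since each tissue has 1 library, differences could not be set against replicate spread, and none was tested for significance.

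These receptors have no kinase domain of their own. Each binds its cytokine with different chains, JAK kinases bound to signalling chains become active, and STAT transcription factors then enter the nucleus. Ligand specificity lies in chains such as Il6ra, Il27ra, Il12rb2 and Il23r, whereas Il6st (gp130), Il12rb1 and Il10rb serve several cytokines. In T cells, IL-6 and IL-23 are known for STAT3 and the Th17 programme, IL-12 for STAT4 and the Th1 programme, IFN-γ for the induction of antigen presentation and of defence GTPases, and IL-10 and IL-27 for restraint of inflammation.

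FPKM, the fragments of a gene corrected for exon length and for the depth of the library, allow levels of different genes in 1 library to be compared. Low FPKM values were close to multiples of what 1 read is worth, and the reads estimated from them summed to 9868851 for spleen and 12889726 for lung. The 95% intervals below are exact and cover the counting of these reads only, since PCR copies were not told apart. T cell and Treg genes were present in both libraries, with Cd4 at 195 FPKM in spleen and 179 in lung and Foxp3 at 18.7 and 41.8. Of 10 Treg markers, Foxp3 among them, 6 were on the higher side in lung. Over 2-fold higher were 4, and over 2-fold lower was 1, Lrrc32 (69.4 and 30.4 FPKM). The shares of the 12094 genes that reached 1 FPKM in either tissue were 17.8% and 15.5%. With both libraries rescaled to the same FPKM sum it was 2 and 3 markers, against 13.1% and 25.9%. Genes of other cells were present as well. Summed over 12 listed macrophage and monocyte markers the FPKM were 681 in spleen and 26454 in lung, all of them above 0 in both libraries, and Lyz2 alone gave 24947 of the lung sum. The sums were 463 and 1196 over 7 neutrophil markers, of which Ngp was at 0 in lung, 267 and 134 over 8 B cell markers, 10.97 and 3130 over 7 epithelial markers, of which Krt8, Sftpc and Sftpb were at 0 in spleen, and 0.290 and 47.0 over 6 fibroblast markers, of which Col3a1, Pdgfra and Pdgfrb were at 0 in spleen and Pdgfrb in lung. Of the epithelial markers Scgb1a1 alone gave 3021 FPKM in lung, whereas Epcam was lower there, at 8.75 in spleen and 1.79 in lung. In pooled cells of this kind, fewer cells of a type and less RNA per cell cannot be told apart.

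The lung library held more of the ligand-binding chain of the IFN-γ receptor and of the private chains of the IL-23 and IL-12 receptors, and less gp130, than the splenic library. Il23r was 21.5-fold higher, Ifngr1 2.59-fold and Il12rb2 2.27-fold, whereas Il6st was 2.35-fold lower. The other 6 chains differed by less than 2-fold. Il10ra, Il10rb and Ifngr2 were on the higher side in lung, Il6ra and Il27ra on the lower, and the levels of Il12rb1 had a ratio of 0.999. With 2-fold as the limit, 3 of 10 chains were higher in lung, against 17.8% of the 12094 genes that reached 1 FPKM in either tissue. In the other direction it was 1 of 10, against 15.5% of these genes. The median log2 ratio of lung to spleen was 0.35 for the 10 chains and 0.031 for all 12094 genes. Il12rb2 and Il23r reached 1 FPKM in lung only. Large ratios were more common among weakly expressed genes. Where the higher of both values was 1 to 10 FPKM, as for Il12rb2 and Il23r, 27.0% of genes were over 2-fold higher and 25.0% over 2-fold lower. At 10 FPKM or more, where the other 8 chains lie, it was 11.6% and 9.15%, and 1 of the 8 chains was called in each direction. This division by level was added after the values had been seen. When both libraries were rescaled to the same FPKM sum (TPM), the median of all genes moved by -0.43 on the log2 scale, and genes over 2-fold became 13.1% higher and 25.9% lower. Under that scaling only Il23r of the 10 chains stayed over 2-fold higher, at 15.95-fold, with Ifngr1 at 1.92-fold and Il12rb2 at 1.68-fold. Il6ra then joined Il6st on the lower side, at 0.499 of the splenic level, and the log2 ratios of Il10ra (-0.0054) and Il10rb (-0.15) changed sign.

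**Figure D1:**
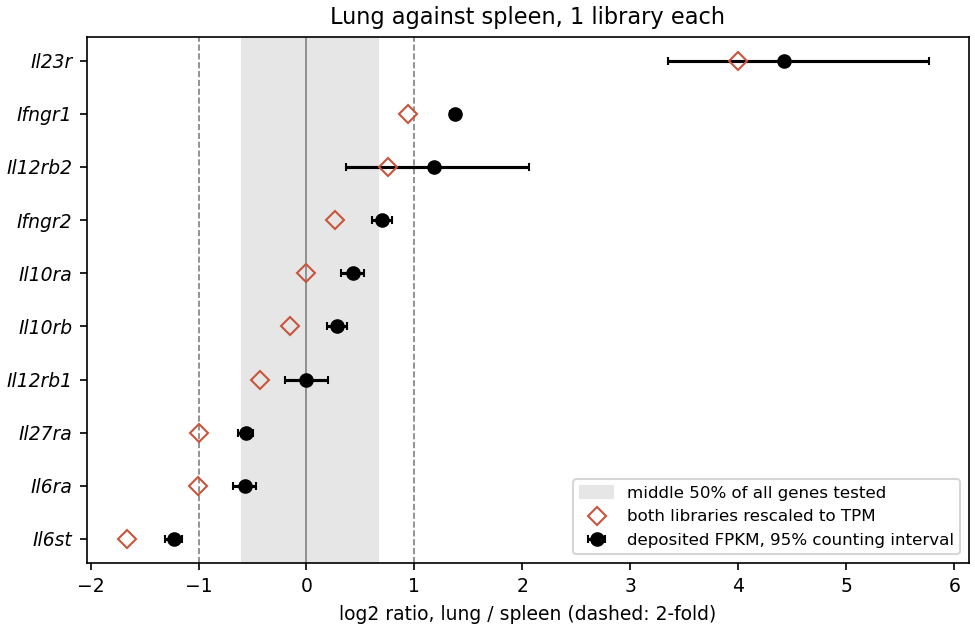
Log2 ratio of lung to spleen for the 10 chains, 1 library per tissue. Black points are the deposited FPKM with 95% exact counting intervals, open diamonds the same genes after rescaling to TPM, the grey band the middle 50% of all 12094 genes tested, and dashed lines mark 2-fold. In FPKM, Il23r (4.43), Ifngr1 (1.37), Il12rb2 (1.18), Ifngr2 (0.70) and Il6st (-1.23) lie outside the band. Il10ra and Il10rb change sign after rescaling.

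Both chains of the IFN-γ receptor were higher in lung, Ifngr1 more so than Ifngr2. Ifngr1 binds IFN-γ and Ifngr2 is needed for the signal. On the mm10 genome (GRCm38), Ifngr1 lies at chr10:19591949-19610229 and Ifngr2 at chr16:91547072-91565623. Ifngr1 was listed at 269 FPKM in spleen (262 to 276) and 696 in lung (686 to 707), 2.59-fold higher in lung (2.51 to 2.67). It was the highest of the 10 chains in both libraries and ranked 360 among all genes in spleen and 189 in lung. Ifngr2 was at 38.5 FPKM in spleen (36.5 to 40.6) and 62.6 in lung (60.2 to 65.1), which is 1.62-fold (1.52 to 1.73). The lung value was above the splenic value for both chains, and their counting intervals did not overlap. After rescaling to TPM the ratios were smaller, 1.92 for Ifngr1 and 1.20 for Ifngr2, both below these counting intervals. Macrophages express the IFN-γ receptor too. Of 12 macrophage and monocyte markers, 9 were over 2-fold higher in the lung library and 0 lower, against 17.8% and 15.5% of all genes. The part of macrophages in the levels of Ifngr1 and Ifngr2 was not tested.

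Both chains of the IL-10 receptor differed by less than 2-fold, on the higher side in lung in FPKM and on the lower side after rescaling to TPM. Il10ra (chr9:45253837-45269149), which binds IL-10, was at 38.6 FPKM in spleen (36.5 to 40.8) and 51.9 in lung (49.6 to 54.3). Il10rb (chr16:91406164-91425834), the accessory chain that IL-22 and type III interferons also use, was at 89.8 FPKM in spleen (85.3 to 94.4) and 109 in lung (105 to 114). The ratios were 1.34 (1.25 to 1.44) and 1.22 (1.14 to 1.30). Both lie within the middle 50% of all genes tested, whose log2 ratios ran from -0.60 to 0.66.

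IL-12 and IL-23 signal through Il12rb1 together with a chain of their own, Il12rb2 or Il23r. Il12rb1 lies at chr8:70808449-70821424, and the other two are neighbours, Il12rb2 at chr6:67291318-67376188 and Il23r at chr6:67422932-67491855. The common chain was at 14.5 FPKM in both libraries (13.1 to 16.01 in spleen and 13.2 to 15.9 in lung), with a ratio of 0.999 (0.872 to 1.15). Il12rb2 was at 0.669 FPKM in spleen (0.397 to 1.06), from about 18 reads, and at 1.52 in lung (1.11 to 2.03), from about 46.4 reads. Il23r was at 0.296 FPKM in spleen (0.119 to 0.610), from about 7 reads, and at 6.37 in lung (5.45 to 7.40), from about 171 reads. The private chains were thus both higher in lung, Il12rb2 by 2.27-fold (1.29 to 4.16) and Il23r by 21.5-fold (10.2 to 54.3). The chain they share was even in FPKM only. After rescaling to TPM, Il12rb1 was at 0.741 of the splenic level, below its counting interval. Il12rb2 was then 1.68-fold and Il23r 15.95-fold higher. The ratio of Il23r lay at percentile 97.0 of all genes tested and that of Il12rb2 at percentile 84.7. With a floor or a pseudocount of 1 FPKM the log2 ratio of Il12rb2 was 0.60 or 0.59, under 2-fold. Then 2 of the 10 chains were over 2-fold higher, against 14.6% of all genes. The value of Il12rb2 is uncertain for a further reason. Between 819 and 1519 nt of its exons, depending on the transcript, overlap exons of Serbp1 on the opposite strand, at 43.9 FPKM in spleen and 48.4 in lung. The library method does not mark strand, so that reads of the overlap cannot be assigned to either gene.

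Genes of the Th17 programme were higher in lung together with Il23r. Il17a and Il17f, the cytokines of this programme, were at 0 in spleen and at 4.59 and 5.17 FPKM in lung, at least 15.3-fold and 17.3-fold higher when 3 reads are allowed for the 0 of the splenic library. Ccr6, a chemokine receptor of these cells, stood at 28.4 FPKM in spleen and 63.6 in lung, 2.24-fold higher and 1.66-fold after rescaling to TPM. Of 6 Th17 genes examined, Il23r itself among them, 4 reached 1 FPKM in lung and 1, Ccr6, in spleen. All 4 were over 2-fold higher in lung, against 17.8% of all genes tested. After rescaling to TPM it was 3, against 13.1%. Il17a, Il17f and Il23r entered this count only through the library in which they were high, so the count is no separate support. Il22 was at 0 in both libraries and Il1r1 at 0.0851 and 0.187 FPKM. Il23r is also expressed by γδ T cells. Of the genes of these cells, 3 were listed, and Cd163l1 was at 0.0297 FPKM in spleen, from about 1 read, and 3.40 in lung. Sox13 stood at 0.0290 FPKM in spleen and 0 in lung, and Blk, which B cells share, at 6.60 and 2.89. Whether Tregs or other cells of the sort carried the Il23r reads was not tested.

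The promoters of the chains differed in CpG content. RefSeq start sites on GRCm38.p6 were at hand for Il6ra, Il6st, Il12rb2, Il23r, Ifngr1 and Ifngr2, and the 250 bases before each were compared with 32851 such windows, which had a median of 6 CpG. Il23r had 1 CpG, Il12rb2 10, Ifngr1 11, Il6ra 18, Ifngr2 25 and Il6st 26. The window of Il23r, the chain with the highest ratio, had fewer CpG than the other 5, and 7.87% of all windows had fewer. That of Il6st, the chain over 2-fold lower in lung, had more CpG than 90.4% of windows. The window of Ifngr2, which was 1.62-fold higher in lung, had more than 89.3%. A relation of CpG content to the ratios was not tested. The windows of Il23r and Il6st are shown 5′ to 3′ with each CpG in capitals, Il23r from the minus strand of chr6:67491856-67492105 and Il6st from the plus strand of chr13:112463820-112464069.
Il23r: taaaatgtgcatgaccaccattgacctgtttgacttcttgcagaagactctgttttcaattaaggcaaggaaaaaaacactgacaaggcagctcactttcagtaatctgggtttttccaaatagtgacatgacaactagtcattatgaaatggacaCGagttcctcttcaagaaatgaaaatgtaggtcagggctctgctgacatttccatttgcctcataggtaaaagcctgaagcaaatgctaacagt
Il6st: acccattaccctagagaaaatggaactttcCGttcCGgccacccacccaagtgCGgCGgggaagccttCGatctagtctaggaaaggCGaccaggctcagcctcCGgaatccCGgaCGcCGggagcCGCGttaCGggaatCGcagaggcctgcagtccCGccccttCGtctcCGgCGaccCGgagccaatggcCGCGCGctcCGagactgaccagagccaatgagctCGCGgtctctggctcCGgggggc

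A STAT binding element of the letters TTCNNNGAA, known as GAS and read alike on both strands, was present in 1 of these 6 windows and in 7.02% of all windows. It lay in Il12rb2, beginning 123 bases before the start site, and stands in capitals in the sequence from the minus strand of chr6:67376189-67376438. The match describes the letters only.
Il12rb2: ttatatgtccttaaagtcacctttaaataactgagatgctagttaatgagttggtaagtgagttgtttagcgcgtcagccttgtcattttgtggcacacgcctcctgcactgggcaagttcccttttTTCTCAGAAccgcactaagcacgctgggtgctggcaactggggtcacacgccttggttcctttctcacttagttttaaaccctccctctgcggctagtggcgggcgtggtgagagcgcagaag

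The IL-6 receptor chains and Il27ra were lower in the lung library. Il6st, gp130, is the signalling chain for IL-6, IL-27 and other cytokines of the family. Its gene lies at chr13:112464070-112510086. It was at 42.5 FPKM in spleen (41.1 to 43.9) and 18.1 in lung (17.3 to 19.0), 2.35-fold lower in lung (2.22 to 2.49). Il6ra (chr3:89864059-89913196), which binds IL-6 and can be shed from the cell, was at 27.8 FPKM in spleen (26.5 to 29.2) and 18.8 in lung (17.7 to 19.8), 1.48-fold lower (1.38 to 1.60). Its transcripts of 3343 and 8639 nt put the estimated reads between 905 and 2434 in spleen, so that this interval is approximate. Il27ra (chr8:84030294-84042589), the specific chain for IL-27, was at 158 FPKM in spleen (153 to 163) and 107 in lung (103 to 111), 1.48-fold lower (1.41 to 1.55). All 3 chains were lower in lung than in spleen with intervals that did not overlap. These intervals cover counting only. The log2 ratios of Il6ra (-0.57) and Il27ra (-0.562) lay between the lower and upper quartiles of all genes tested (-0.598 and 0.659). Only that of Il6st (-1.23) lay below the lower quartile. Neutrophils and macrophages also express Il6ra. Over 2-fold higher in the lung library were 4 of 7 neutrophil and 9 of 12 macrophage markers, against 17.8% of all genes. Over 2-fold lower were 1 and 0 of them, against 15.5%. The part of these cells in the level of Il6ra was not tested. Adam10, a protease that can release Il6ra from cells, stood at 35.0 FPKM in spleen and 18.9 in lung, and Adam17, another, at 25.2 and 32.8.

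By level, the chains spanned a wide range in each library. In spleen the order of FPKM was Ifngr1, Il27ra, Il10rb, Il6st, Il10ra, Ifngr2, Il6ra, Il12rb1, Il12rb2 and Il23r. The intervals of Il10ra and Ifngr2 overlapped, as did those of Il12rb2 and Il23r, so that neither pair is ordered. In lung it was Ifngr1, Il10rb, Il27ra, Ifngr2, Il10ra, Il6ra, Il6st, Il12rb1, Il23r and Il12rb2, with overlapping intervals of Il10rb and Il27ra and of Il6ra and Il6st. Il6st held place 4 in spleen and place 7 in lung, and Il23r stood above Il12rb2 in lung. With 2 libraries a pattern is a single ratio, so no gene is named for resembling a chain.

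**Figure D2:**
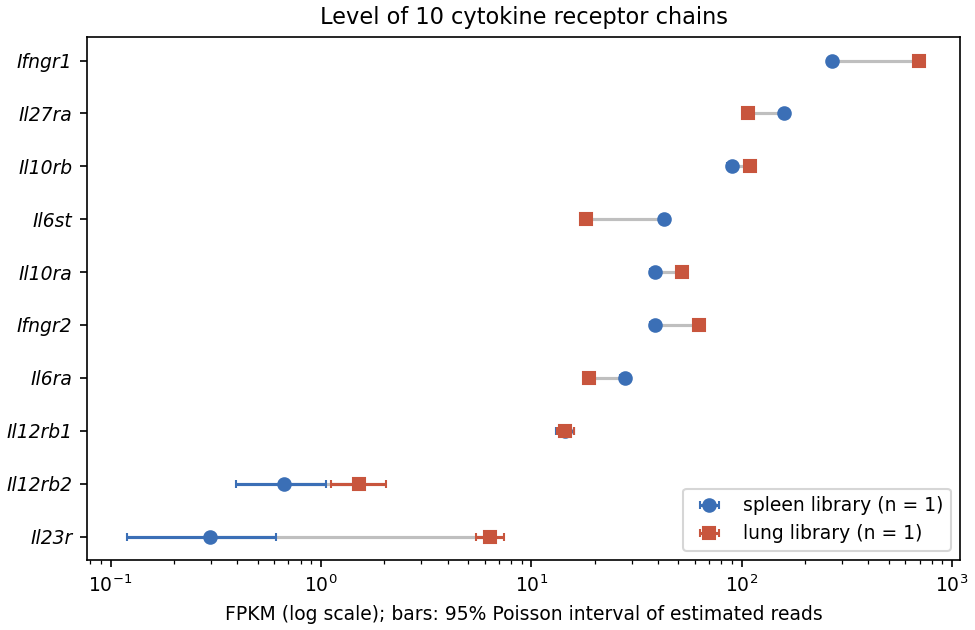
FPKM of the 10 chains on a log scale, blue circles for the splenic and red squares for the lung library (1 each), with 95% exact Poisson intervals of the estimated reads. Il23r spans the widest gap, from 0.296 to 6.37 FPKM, and the points of Il12rb1 coincide at 14.5.

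Because each receptor needs both of its chains, their FPKM were also compared within each library, where the scaling of the library has no effect. Il12rb1 exceeded Il23r 49.0-fold in spleen (23.6 to 123) and 2.28-fold in lung (1.91 to 2.73). With 1 FPKM added to both chains these ratios were 11.97 and 2.104, since Il23r rested on about 7 reads in spleen. For the IL-12 receptor, Il12rb1 exceeded Il12rb2 21.7-fold in spleen (13.6 to 37.0) and 9.55-fold in lung (7.04 to 13.2). Il6ra was at 0.655 of the level of Il6st in spleen (0.618 to 0.694) and at 1.04 of it in lung (0.964 to 1.11), an even balance in lung within counting error. Il27ra exceeded Il6st 3.72-fold in spleen (3.56 to 3.89) and 5.91-fold in lung (5.58 to 6.27). Ifngr1 exceeded Ifngr2 6.98-fold in spleen (6.58 to 7.41) and 11.1-fold in lung (10.7 to 11.6). The IL-10 receptor kept nearly the same balance, with Il10ra at 0.430 of the level of Il10rb in spleen (0.399 to 0.464) and 0.475 in lung (0.447 to 0.506). In lung the lesser chain was Il6st at 18.1 FPKM for IL-27, Il23r at 6.37 for IL-23 and Il12rb2 at 1.52 for IL-12. For IL-6 neither chain was the lesser there within counting error.

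**Figure D3:**
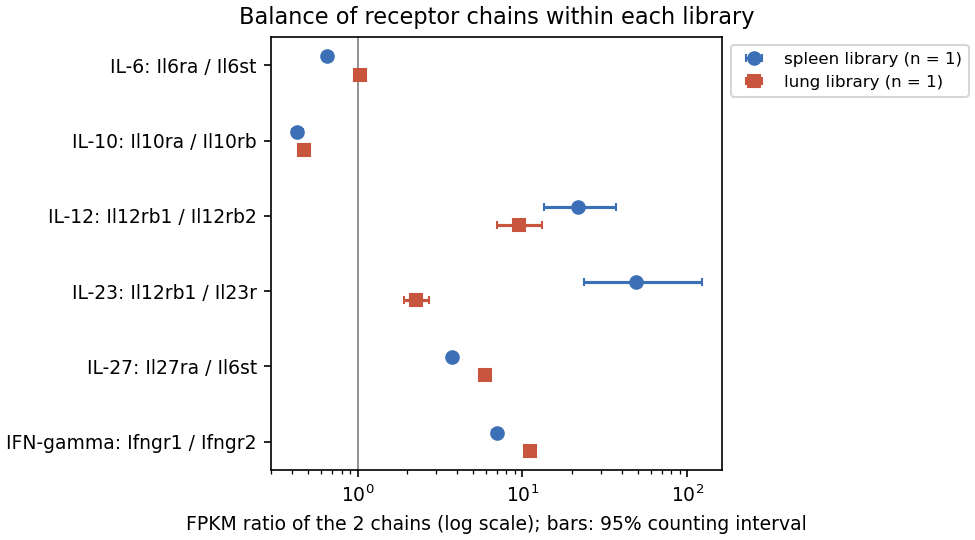
FPKM of the first chain over the second for 6 receptors, on a log scale, with 95% exact counting intervals, in the splenic (blue circles) and the lung library (red squares). The intervals of the IL-23 receptor lie far apart (49.0 in spleen, 2.28 in lung), whereas those of the IL-10 receptor (0.430 and 0.475) overlap.

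Transcripts of several ligands were present in the sorted cells. Of 9 ligand genes, 7 reached 1 FPKM in lung and 4 in spleen. Of the 7, 5 were over 2-fold higher in lung and 0 lower, against 17.8% and 15.5% of all genes tested. Il6, Il12b and Il27 reached 1 FPKM in lung only and so entered through the library in which they were high. Il12a, Il12b and Il27 lie at 1 to 10 FPKM, where 27.0% of genes were over 2-fold higher. Il6 was at 0 in spleen and 13.9 FPKM in lung, at least 33.1-fold higher with 3 reads allowed in spleen. Il12a, the p35 subunit of IL-12 and of the Treg cytokine IL-35, stood at 1.27 FPKM in spleen and 8.44 in lung, 6.67-fold higher (3.81 to 12.6). Ebi3, the partner of Il12a in IL-35 and of Il27 in IL-27, was at 24.4 and 49.9 FPKM, 2.04-fold higher (1.75 to 2.39). Il27 stood at 0.194 FPKM in spleen and 2.22 in lung, 11.4-fold higher with a counting interval of 2.80 to 101, and Il12b at 0.504 and 1.29, 2.57-fold higher (1.16 to 6.25). After rescaling to TPM, Ebi3 (1.51-fold) and Il12b (1.90-fold) were no longer over 2-fold. Il10 stood at 8.17 FPKM in spleen and 14.8 in lung, 1.81-fold (1.40 to 2.34), and Ifng at 12.4 and 10.5, with a ratio of 0.853 (0.661 to 1.10). Il23a, the private subunit of IL-23, stood at 0.0838 FPKM in spleen, from about 1 read, and 0 in lung. It was thus at or near 0 in both libraries. Macrophages and fibroblasts make Il6, and their markers were higher in lung. Their part in the ligand levels was not tested.

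Among 13 other receptors of the same families, 8 reached 1 FPKM in lung and 4 in spleen. Of the 8, 5 were over 2-fold higher in lung and 0 lower (all genes, 17.8% and 15.5%). After rescaling to TPM it was 5 and 1 (all genes, 13.1% and 25.9%). Lifr, Osmr and Il20rb, among those higher, reached 1 FPKM in lung only and so entered through the library in which they were high. With Il11ra1 they lie at 1 to 10 FPKM, where 27.0% of genes were over 2-fold higher and 25.0% lower. Csf3r, the G-CSF receptor of neutrophils, stood at 4.06 FPKM in spleen and 26.4 in lung, 6.49-fold higher (5.41 to 7.85). Il11ra1, which pairs with gp130, was at 2.73 and 7.71 FPKM, 2.82-fold higher (2.01 to 4.02), and Il20rb at 0.467 and 5.35. Lifr and Osmr, partners of gp130 on stromal cells, were at 0.260 and 0.0417 FPKM in spleen and at 1.45 and 2.66 in lung. Gp130 itself thus differed in the opposite direction to these partners. The neutrophil and fibroblast markers higher in lung are given above, and their part in these levels was not tested. Ifnar1, a chain of the type I interferon receptor, was at 32.3 and 17.1 FPKM, 1.89-fold lower in lung (1.72 to 2.07), and 2.55-fold lower after rescaling. Il20ra, Il22ra1, Il22ra2 and Ifnlr1 were at 0 in both libraries, so the partner chains with which Il10rb serves IL-22 and type III interferons were not detected at this depth.

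Downstream, 0 of 5 kinases and STATs examined passed 2-fold, against 17.8% of all genes over 2-fold higher and 15.5% lower. Jak1 (244 and 163 FPKM in spleen and lung), Jak2 (37.1 and 22.3) and Tyk2 (15.99 and 9.78) were each 1.499-fold to 1.66-fold lower in lung. Stat3 was at 89.3 and 108 FPKM and Stat4 at 74.2 and 81.8. After rescaling to TPM these 3 kinases were over 2-fold lower, and Stat3 and Stat4 turned to the lower side at 0.897 and 0.817 of the splenic level. Under that scaling 25.9% of all genes were over 2-fold lower and 13.1% higher. Of 8 inhibitors of this signalling, 1 was over 2-fold higher and 0 lower, against 17.8% and 15.5% of all genes. After rescaling it was 0 and 1, against 13.1% and 25.9%, when Ptpn2, a phosphatase (82.2 and 52.4 FPKM), was 2.12-fold lower. Socs3, the feedback inhibitor that binds gp130, stood at 39.2 FPKM in spleen and 81.7 in lung, 2.08-fold higher (1.93 to 2.25) and 1.55-fold after rescaling. Socs1, which restrains IFN-γ signalling, was at 74.4 and 68.2 FPKM.

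Of a list of 18 genes that IFN-γ is known to induce, 17 reached 1 FPKM, of which 0 were over 2-fold higher and 4 over 2-fold lower, with a median log2 ratio of -0.45. Over all genes tested the shares were 17.8% and 15.5%, so the count of lower genes was near that of all genes. The list does not hold every such gene. These 4 were Gbp5 (3.57 FPKM in spleen and 0.211 in lung), Ciita (3.96 and 0.896), Nlrc5 (39.7 and 15.5) and Irgm1 (119 and 47.9), a GTPase, the regulators of MHC class II and class I genes and another GTPase. On the higher side were Psmb9, an immunoproteasome subunit (379 and 496 FPKM), Cxcl10 (16.9 and 26.4) and Gbp3 (44.9 and 47.2). After rescaling to TPM, Psmb9 (log2 ratio -0.045) and Gbp3 (-0.36) turned to the lower side, and 6 genes were over 2-fold lower and 0 higher, against 25.9% and 13.1% of all genes. Ciita is expressed by B cells. Of the 7 B cell markers at 1 FPKM or more, 4 were over 2-fold lower in lung and 0 higher, against 15.5% and 17.8% of all genes. The part of B cells was not tested. Of 9 genes induced through STAT3, 3 were over 2-fold higher in lung and 1 lower, against 17.8% and 15.5% of all genes. The higher were Prdm1, a regulator of effector differentiation (5.79 and 16.03 FPKM), Socs3 and Batf (117 and 244). Bcl6, the regulator of follicular T cells, was 2.12-fold lower, at 5.27 and 2.48 FPKM. Socs3 and Batf were under 2-fold after rescaling. Of 9 genes induced through STAT4, 3 were over 2-fold higher and 0 lower, against the same shares. Gzmb, a cytotoxic granule protease, was at 7.51 and 63.1 FPKM, and Il18rap, a chain of the IL-18 receptor, at 3.50 and 13.7. The third was Il12rb2, itself a chain examined here, which reached 1 FPKM in lung only. Tbx21, the Th1 transcription factor, was at 8.35 and 7.83. Cd8a and Cd8b1 of CD8 T cells, which also express Gzmb and Il12rb2, were at 4.13 and 19.9 FPKM in spleen and at 12.2 and 74.8 in lung, and their part was not tested.

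**Figure D4:**
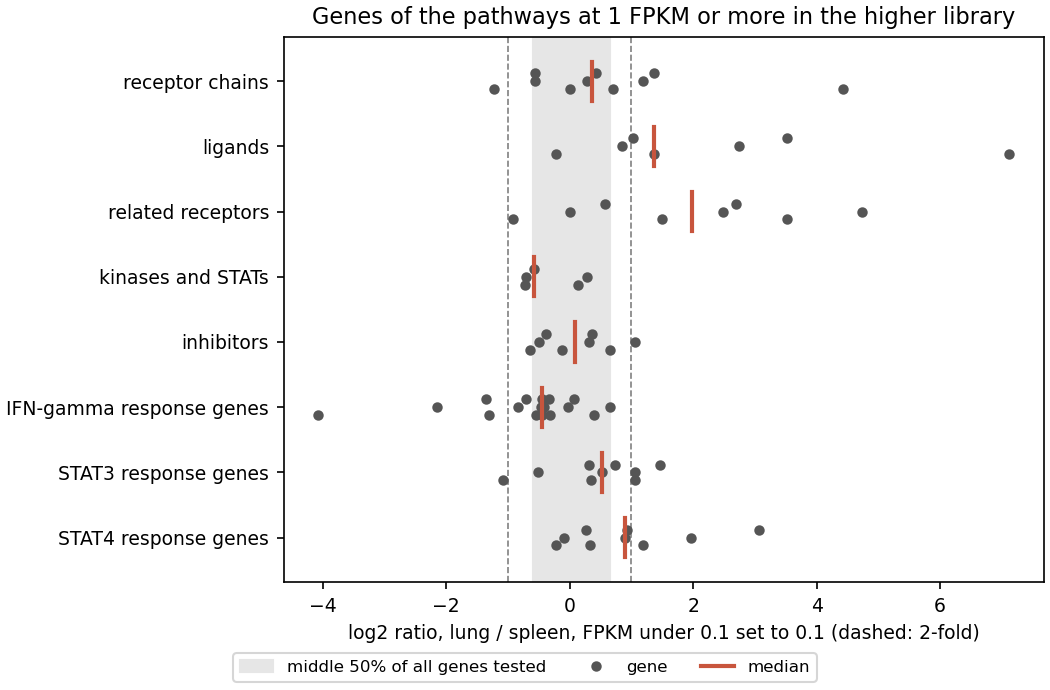
Log2 ratio of lung to spleen for genes of each list that reached 1 FPKM in either tissue, with FPKM under 0.1 set to 0.1, 1 library per tissue. Points are genes, red lines the medians of the lists, the grey band the middle 50% of all 12094 genes tested, and dashed lines 2-fold. The median of the IFN-γ response genes lies at -0.45 and that of the ligands at 1.36.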

How the data were processed

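Bulk RNA-seq of GFP+CD4+ cells was analysed, with 1 library for each tissue. Per the labels and the methods, the authors mapped 75-base single-end SMART-Seq HT reads to mm10 with TopHat2 2.1.1, Bowtie2 2.2.8 and SAMtools 0.1.18. The deposited values are FPKM from Cuffdiff 2.2.1. The annotation and any scaling between the libraries are not given in the sources used here.

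FPKM under 0.1 were set to 0.1 and lung was divided by spleen. Genes that reached 1 FPKM in either tissue were counted past 2-fold, with no test. Reads were estimated from transcript lengths of GENCODE M21 (GRCm38) tied to RefSeq, found for 97.3% of symbols, with the median length per gene, fragments of 200 ± 80 nt and a shortest fragment of 73 nt. What 1 read is worth was taken as the commonest FPKM × effective length. Among genes of a single length with 1 to 10 reads, 72.6% in spleen and 74.6% in lung fell within 0.1 of a whole read. Intervals of levels are exact Poisson and those of ratios exact binomial (Clopper-Pearson).

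All 10 chains and the genes of fixed pathway and marker lists could be named. These members and lists were chosen with earlier results of these data known. A few genes of the lists are not reported here and enter no count of a list. Tested on simulated data for 17516 genes, all 100 genes raised and all 100 lowered 4-fold were called. The changed genes were not weakly expressed, the change lay well past the 2-fold limit, and only counting noise was added. This outcome was therefore nearly fixed in advance. It does not cover smaller changes, low levels or spread between libraries. Tools were scipy 1.17.1, pandas 2.3.3, numpy 2.4.6, matplotlib 3.10.9 and Python 3.11.15.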

Additional observations from a re-analysis of the deposited data

How the results depend on the processing

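There were 3 chains over 2-fold higher and 1 over 2-fold lower in lung, against 17.8% and 15.5% of all genes. The numbers of chains were the same with the median ratio set to 1 or with equal upper quartiles, against 17.6% and 15.7% of all genes. After rescaling to TPM there were 1 and 2, against 13.1% and 25.9% of all genes. The median log2 ratio of the 10 chains then turned from 0.35 to -0.077, while that of all 12094 genes moved from 0.031 to -0.40. With 4-fold as the limit, 1 chain was higher and 0 lower, against 10.02% and 7.003% of all genes. With a floor or pseudocount of 1 FPKM, 2 were over 2-fold higher, without Il12rb2, against 14.6% of all genes. Under TPM the log2 ratios of 8 of 10 chains left their counting intervals, and under the floor and the pseudocount of 1 FPKM 1 each. A floor of 0.01 FPKM and a least value of 3 estimated reads, the latter added after the values had been seen, could move no chain. The log2 ratio of Il23r ran from 2.51 to 4.43, that of Il12rb2 from 0.59 to 1.18, that of Ifngr1 from 0.94 to 1.37 and that of Il6st from -1.66 to -1.19. A pseudocount of 1 FPKM on both chains lowered Il12rb1 over Il12rb2 to 9.30 in spleen and 6.16 in lung and Il12rb1 over Il23r to 11.97 in spleen, since the lesser chain was near or under 1 FPKM. No replicate could be left out.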

Other observations

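Several of the chains lie in clusters of cytokine receptor genes on GRCm38, and their neighbours had unlike ratios. On chromosome 16 the order is Ifnar2, Il10rb, Ifnar1 and Ifngr2, with 574 bases between Ifnar2 and Il10rb. Ifnar2 stood at 82.5 FPKM in spleen and 82.7 in lung, Il10rb at 89.8 and 109, Ifnar1 at 32.3 and 17.1, and Ifngr2 at 38.5 and 62.6. Ifnar1 was thus lower in lung between 2 genes that were higher, and after rescaling to TPM Il10rb was lower too. On chromosome 10, Il22ra2 lies 11768 bases from Ifngr1 and was at 0 in both libraries, next to the highest of the 10 chains. On chromosome 6, Il12rb2 and Il23r are 46743 bases apart, and both were higher in lung, Il12rb2 from about 18 and 46.4 reads.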
